A study of Mus musculus with 6 samples.

Results

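The genes described here are 10 that build or mark the T cell: the signalling chains Cd3e, Cd3g and Cd247 of the T cell receptor complex, the coreceptors Cd4 and Cd8a, the kinase Lck, and the transcription factors Tcf7, Lef1, Bcl11b and Foxp3. They were taken by gene name from a table of 44794 named gene loci, using the locus of highest mean where a name occurred more than once, and all 10 were found. Spleen RNA of 6 samples was sequenced, 3 from Sle1b.IFNγR-/- mice, which carry the Sle1b lupus susceptibility interval and lack the interferon-γ receptor, and 3 from B6.Sle1b mice, the autoimmune-prone C57BL/6 line that carries the interval and has the receptor. Both groups carry Sle1b and both were given, 3 times weekly over 4 weeks, imiquimod, which activates the RNA-sensing receptor TLR7, so neither an untreated nor a non-autoimmune group is part of the comparison. The receptor is missing from every cell type of the Sle1b.IFNγR-/- mice as far as the genotype label tells; the sources used here do not give the disrupted subunit, the sex or the age. The comparison asks whether spleen transcripts of T cells differ when interferon-γ cannot signal during TLR7-driven autoimmunity.

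A T cell recognises antigen through a receptor whose variable chains have almost no tail inside the cell, so that signals pass through the CD3 chains and the zeta chain encoded by Cd247. Lck, held by the tails of CD4 and CD8, phosphorylates these chains, and helper and cytotoxic T cells are told apart by which coreceptor they keep. Tcf7, Lef1 and Bcl11b establish and maintain the T lineage, and Foxp3 defines regulatory T cells. In the spleen these genes mark mainly the T cells of the white pulp, although Cd4 and Cd8a are also carried by subsets of dendritic cells and Cd247 and Lck by NK cells.

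Stretches of 250 bases before to 50 bases after the start site are shown for 3 of the members, from RefSeq on GRCm38.p6. Those of Cd3e and Cd3g are shown because these neighbours on chromosome 9 had very different levels. The Lck pair is shown because Lck was the 1 member whose groups did not overlap, and its locus sums what both start sites make. Cd3e lies at chr9:45009562-45009861, Cd3g at chr9:44980382-44980681, the first Lck start site at chr4:129573592-129573891 and the second at chr4:129558323-129558622, all on the minus strand. Capitals mark an ETS motif (CAGGAAGT) or a RUNX motif (TGTGGT), each searched on both strands.
Cd3e: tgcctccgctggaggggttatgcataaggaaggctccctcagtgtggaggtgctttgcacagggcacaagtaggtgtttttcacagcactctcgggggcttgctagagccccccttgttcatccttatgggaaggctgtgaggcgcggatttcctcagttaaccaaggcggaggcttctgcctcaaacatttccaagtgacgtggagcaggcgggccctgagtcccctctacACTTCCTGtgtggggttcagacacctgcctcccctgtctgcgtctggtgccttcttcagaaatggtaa
Cd3g: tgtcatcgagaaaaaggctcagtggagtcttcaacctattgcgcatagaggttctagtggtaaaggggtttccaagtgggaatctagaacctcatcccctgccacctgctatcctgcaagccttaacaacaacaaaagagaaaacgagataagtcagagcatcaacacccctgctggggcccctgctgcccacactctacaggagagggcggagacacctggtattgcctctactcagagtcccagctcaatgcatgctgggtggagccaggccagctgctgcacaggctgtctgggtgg
Lck, first start site: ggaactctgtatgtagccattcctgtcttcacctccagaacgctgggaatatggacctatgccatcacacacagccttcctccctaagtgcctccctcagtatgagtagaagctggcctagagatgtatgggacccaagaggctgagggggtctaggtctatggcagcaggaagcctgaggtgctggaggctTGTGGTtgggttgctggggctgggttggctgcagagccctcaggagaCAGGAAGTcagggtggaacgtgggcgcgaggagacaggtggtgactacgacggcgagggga
Lck, second start site: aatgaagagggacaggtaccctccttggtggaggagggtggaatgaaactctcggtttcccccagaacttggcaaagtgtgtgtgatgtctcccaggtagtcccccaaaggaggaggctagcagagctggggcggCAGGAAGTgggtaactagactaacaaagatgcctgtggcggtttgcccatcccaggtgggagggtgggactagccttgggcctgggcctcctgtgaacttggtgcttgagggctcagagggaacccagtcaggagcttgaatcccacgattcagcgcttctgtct

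RefSeq promoters were matched for 9 of the 10 genes, with 15 start sites in all, and Cd4 had none. The ETS letters stood in 5 of these 15 stretches and in 3.33% of 32851 promoters of that length. In Cd3e they began 18 bases before the start site and in Lck 11 and 115 bases before. None of these motifs stood in the Cd3g stretch. The RUNX letters stood in 1 of the 15 stretches and in 16.8% of all promoters, and the TCF/LEF letters CTTTGA stood in 3 and in 16.0%. None of the motifs overlapped another in the stretches printed. Such a match describes letters and shows no binding.

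The libraries held between 4394300 and 6349830 fragments, and between 17.5% and 26.96% of the values lay at loci with a gene name. B6.Sle1b replicate 1 stood apart: the log2 level of 30 ribosomal protein genes, taken as their median, lay 1.41 above the mean of all libraries there, against -0.42 and -0.078 in B6.Sle1b replicates 2 and 3 and between -0.31 and -0.16 in the 3 Sle1b.IFNγR-/- libraries. Ifngr1, whose product binds interferon-γ, had scaled counts of 43.7, 21.4 and 24.0 in Sle1b.IFNγR-/- and 81.5, 34.5 and 63.7 in B6.Sle1b, and Ifngr2 averaged 6.72 ± 2.95 and 11.03 ± 3.09 (SD, n = 3 each), values that do not check the genotype labels, since the altered part of the gene is not named. Cd3e, Cd4, Cd8a and Lck were above 0 in all 6 libraries. The thymocyte gene Dntt was at 0 in all Sle1b.IFNγR-/- libraries and in B6.Sle1b replicates 1 and 2. The NK cell gene Nkg7 was at 0 in all Sle1b.IFNγR-/- libraries and in B6.Sle1b replicate 2. In all, 3 of 8 thymocyte genes and 6 of 10 NK cell genes were at 0 in at least 1 library. The remaining thymocyte and NK cell genes were above 0 in all 6 libraries. Among them, Rag2 averaged 38.2 in Sle1b.IFNγR-/- and 45.8 in B6.Sle1b, and Klrk1 averaged 18.8 and 11.1. Values above 0 therefore do not tell T cells from these cells.

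None of the 10 genes differed between the genotypes past the threshold. Of the 10, 9 reached the mean scaled count of 10 needed for the test, and 0 of these 9 passed a Benjamini-Hochberg adjusted p of 0.05 in limma, where 0.0% of 19227 tested loci passed. At an unadjusted p under 0.05 the count was also 0 of 9, against 3.1% of all tested loci (596). Every one of the 9 had an adjusted p of 0.9998, as did the tested locus with the smallest p. Of the 9, 4 had lower and 5 had higher mean log2 values in Sle1b.IFNγR-/-, and 58.1% of all tested loci were lower. The groups did not overlap in 1 of the 10 genes, Lck, which was lower in Sle1b.IFNγR-/-, a pattern seen in 5.19% of tested loci. None was higher without overlap, a pattern seen in 3.51%. In whole spleen, fewer T cells and less RNA per T cell cannot be told apart. Values below are counts per locus as scaled by the authors, and differences are Sle1b.IFNγR-/- minus B6.Sle1b on the log2(value + 1) scale, which understates changes of low genes.

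**Figure D1:**
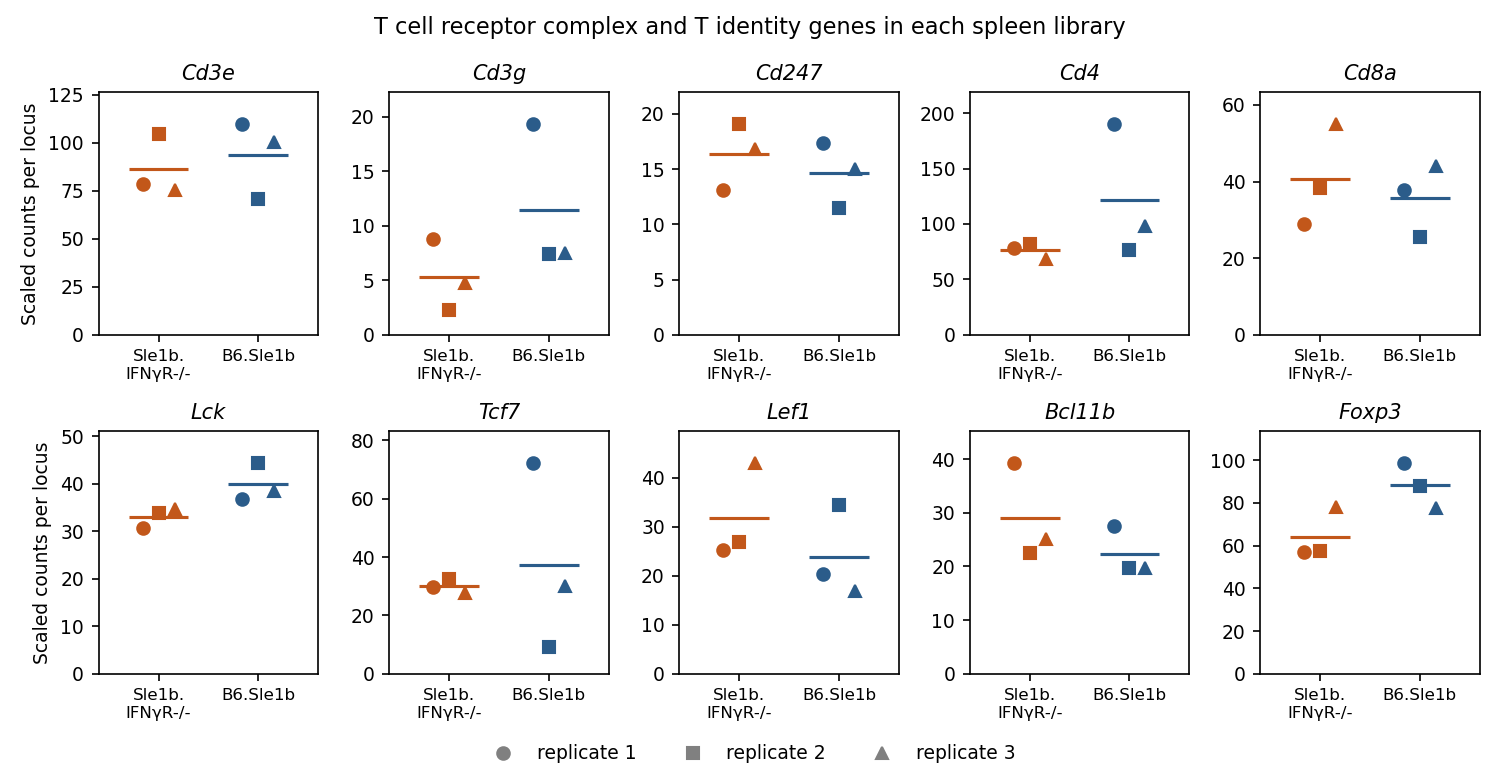
Scaled counts per locus (vertical axes, each from 0) of the 10 genes in the 3 Sle1b.IFNγR-/- and the 3 B6.Sle1b spleen libraries; each point is a library, its shape the replicate number, and bars are group means. The groups overlap in 9 of the 10 genes and are separate in Lck, and B6.Sle1b replicate 1 is far above the other libraries in Cd4 (191), Tcf7 (72.3) and Cd3g (19.4).

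Among the signalling chains in the set, Cd3e, the CD3 chain that pairs with the gamma or the delta chain, was the most abundant (chromosome 9, 44998740 to 45009627, GRCm38, minus strand). Its scaled counts were 78.7, 105 and 75.5 in Sle1b.IFNγR-/- and 110, 70.7 and 100.3 in B6.Sle1b. Both groups covered much of the same range, and the highest and the lowest library were both B6.Sle1b. The means were 86.2 ± 15.9 and 93.7 ± 20.5 (SD, n = 3 each), a log2 difference of -0.11 with a 95% interval of -0.75 to 0.53. Without B6.Sle1b replicate 1 the difference was 0.018, so its direction rests on that library. The antisense gene Gm48719 and the unclassified transcript Gm48720 overlap Cd3e in the annotation.

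Cd3g, the gamma chain of CD3 (chromosome 9, 44969572 to 44980431, minus strand), was too low for the test. Its scaled counts of 8.74, 2.25 and 4.79 in Sle1b.IFNγR-/- stood for 10, 2 and 4 fragments, and those of 19.4, 7.40 and 7.4997 in B6.Sle1b stood for 19, 9 and 8 fragments. B6.Sle1b replicate 1 had more than any other library, and Sle1b.IFNγR-/- replicate 1 lay above both remaining B6.Sle1b libraries. With a pool of 16 fragments in Sle1b.IFNγR-/- and 36 in B6.Sle1b, a difference of this gene smaller than the spread between libraries was not detectable at this depth. Without the filter on low values the log2 difference was -0.996 (limma adjusted p = 0.964).

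Cd247, the zeta chain with the longest signalling tail of the complex (chromosome 1, 165788681 to 165877277, plus strand), had 13.1, 19.1 and 16.8 in Sle1b.IFNγR-/- and 17.3, 11.5 and 14.9998 in B6.Sle1b. The libraries interleaved, with between 14 and 17 fragments in each. The log2 difference was 0.15 (95% interval -0.84 to 1.14), 0.28 without B6.Sle1b replicate 1 and 0.0023 without B6.Sle1b replicate 2. The file merges this locus with the noncoding gene Gm16565, and Pou2f1 overlaps it in the annotation.

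The coreceptors had differences of opposite sign, and neither passed. Cd4, the coreceptor of helper and regulatory T cells (chromosome 6, 124864692 to 124888221, minus strand), had 78.7, 82.0 and 68.3 in Sle1b.IFNγR-/- and 191, 76.5 and 98.4 in B6.Sle1b. The Sle1b.IFNγR-/- libraries were close together, and B6.Sle1b replicate 2 lay among them. The means were 76.3 ± 7.18 and 122 ± 60.5 (SD, n = 3 each), and the log2 difference of -0.56 (SE 0.34, 95% interval -1.30 to 0.18, limma adjusted p = 0.9998) was the largest in size among the 9 tested genes. B6.Sle1b replicate 1 held 2.18 times the mean of the other B6.Sle1b libraries, and without it the difference was -0.19.

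Cd8a, the alpha chain of the cytotoxic T cell coreceptor (chromosome 6, 71373427 to 71379173, plus strand), had 28.9, 38.2 and 55.1 in Sle1b.IFNγR-/- and 37.7, 25.5 and 44.1 in B6.Sle1b. The highest library was Sle1b.IFNγR-/- replicate 3 and the lowest B6.Sle1b replicate 2, with the others interleaved. The log2 difference was 0.17 (95% interval -0.63 to 0.96), and it turned to -0.069 without Sle1b.IFNγR-/- replicate 3 and to -0.050 without B6.Sle1b replicate 2. Unlike Cd4, Cd8a was not raised in B6.Sle1b replicate 1, at 1.08 times the mean of the other B6.Sle1b libraries.

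A ratio within a library depends little on the scaling between libraries, except for low genes, since 1 was added to both values. The log2 ratio of Cd4 over Cd8a was 1.42, 1.08 and 0.30 in Sle1b.IFNγR-/- and 2.31, 1.55 and 1.14 in B6.Sle1b, with means of 0.93 ± 0.57 and 1.67 ± 0.59 (SD, n = 3 each). The groups overlapped, and the difference of -0.73 had a two-sided exact permutation p of 0.2, or 0.45 adjusted over 3 ratios. A p of 0.1 is the lowest that 3 libraries in each group allow. The ratio of Cd3g over Cd3e averaged -3.93 ± 1.01 and -3.04 ± 0.57 (difference -0.89, exact permutation p = 0.3, adjusted p = 0.45). With 0.5 or 10 added instead of 1, the Cd3g over Cd3e difference was -0.96 or -0.37, so its size depends on the added value. That of Cd4 over Cd8a was -0.74 or -0.66.

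Lck, the kinase that starts the receptor's signal (chromosome 4, 129548344 to 129573641, minus strand), had 30.6, 33.7 and 34.7 in Sle1b.IFNγR-/- and 36.7, 44.4 and 38.4 in B6.Sle1b. Every Sle1b.IFNγR-/- library lay below every B6.Sle1b library, with a gap of fewer counts than either group's range. The means were 33.0 ± 2.15 and 39.8 ± 4.04 (SD, n = 3 each). In limma the log2 difference was -0.26 (SE 0.32, 95% interval -0.95 to 0.43), inside the spread that the model expects of loci at this level. Lck was the 1 member highest in B6.Sle1b replicate 2, and B6.Sle1b replicate 1 was at 0.886 times the mean of the other B6.Sle1b libraries. Without that library the difference was -0.32, and with values scaled to the ribosomal protein genes it was 0.24. The locus also holds the microRNA gene Mir8119, which lies inside Lck.

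The lineage factors Tcf7, Lef1 and Bcl11b had log2 differences of 0.12, 0.42 and 0.34, with groups that overlapped in each. Tcf7, which encodes TCF-1 (chromosome 11, 52252371 to 52283014, minus strand), had 29.7, 32.6 and 27.6 in Sle1b.IFNγR-/- and 72.3, 9.04 and 29.9988 in B6.Sle1b. The Sle1b.IFNγR-/- libraries were nearly equal, whereas B6.Sle1b held both the highest and the lowest library. The mean of scaled counts was lower in Sle1b.IFNγR-/- (29.96 ± 2.53 against 37.1 ± 32.2, SD, n = 3 each), while the mean on the log2 scale was higher. Its difference was 0.81 without B6.Sle1b replicate 1 and -0.63 without B6.Sle1b replicate 2, so that 1 library set its direction.

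Lef1, the partner factor of TCF-1 (chromosome 3, 131110471 to 131224356, plus strand), had 25.4, 26.97 and 43.1 in Sle1b.IFNγR-/- and 20.4, 34.5 and 16.9 in B6.Sle1b. The highest library was Sle1b.IFNγR-/- replicate 3 and the lowest B6.Sle1b replicate 3, with B6.Sle1b replicate 2 above both remaining Sle1b.IFNγR-/- libraries. The 95% interval of its difference ran from -0.45 to 1.29, and the difference was above 0 in all 16 alternatives that gave a value, between 0.19 and 0.91. The name Lef1 occurred at 4 loci. The other 3 had lower means of 18.4, 16.2 and 5.68 scaled counts. None of the alternatives added them to the Lef1 value, and their own values did not follow it. The steady direction is therefore that of the locus of highest mean and not of the whole gene.

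Bcl11b, a zinc finger factor needed for T lineage commitment (chromosome 12, 107910403 to 108003602, minus strand), had 39.3, 22.5 and 25.2 in Sle1b.IFNγR-/- and 27.5, 19.7 and 19.7 in B6.Sle1b. Sle1b.IFNγR-/- replicate 1 was highest, and the others lay close together across both groups. The log2 difference of 0.34 (95% interval -0.49 to 1.17) was 0.11 without Sle1b.IFNγR-/- replicate 1. It was above 0 in all 16 alternatives, between 0.11 and 0.84.

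Foxp3, the defining factor of regulatory T cells (chromosome X, 7573644 to 7595245, plus strand), had 56.8, 57.3 and 77.86 in Sle1b.IFNγR-/- and 98.8, 88.0 and 77.81 in B6.Sle1b. The groups touched at a single pair, Sle1b.IFNγR-/- replicate 3 and B6.Sle1b replicate 3, and were otherwise apart. The means were 64.0 ± 12.003 and 88.2 ± 10.5 (SD, n = 3 each), and the log2 difference was -0.47 (SE 0.29, 95% interval -1.09 to 0.16, limma adjusted p = 0.9998). It lay between -0.61 and -0.38 when single libraries were left out, and at 0.049 with values scaled to the ribosomal protein genes. Set against Cd4, the log2 ratio of Foxp3 averaged -0.26 ± 0.39 in Sle1b.IFNγR-/- and -0.36 ± 0.57 in B6.Sle1b (difference 0.097, exact permutation p = 1, n = 3 each).

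The Foxp3 values are not those of Foxp3 alone. The file merges its locus with Ppp1r3fos, which RefSeq lists as a synonym of Flicr, a noncoding RNA gene overlapping Foxp3 on the same strand. Ppp1r3f, Ccdc22 and Gm36995 overlap it on the other strand in GENCODE, and without a stated strand setting their reads cannot be told apart.

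**Figure D2:**
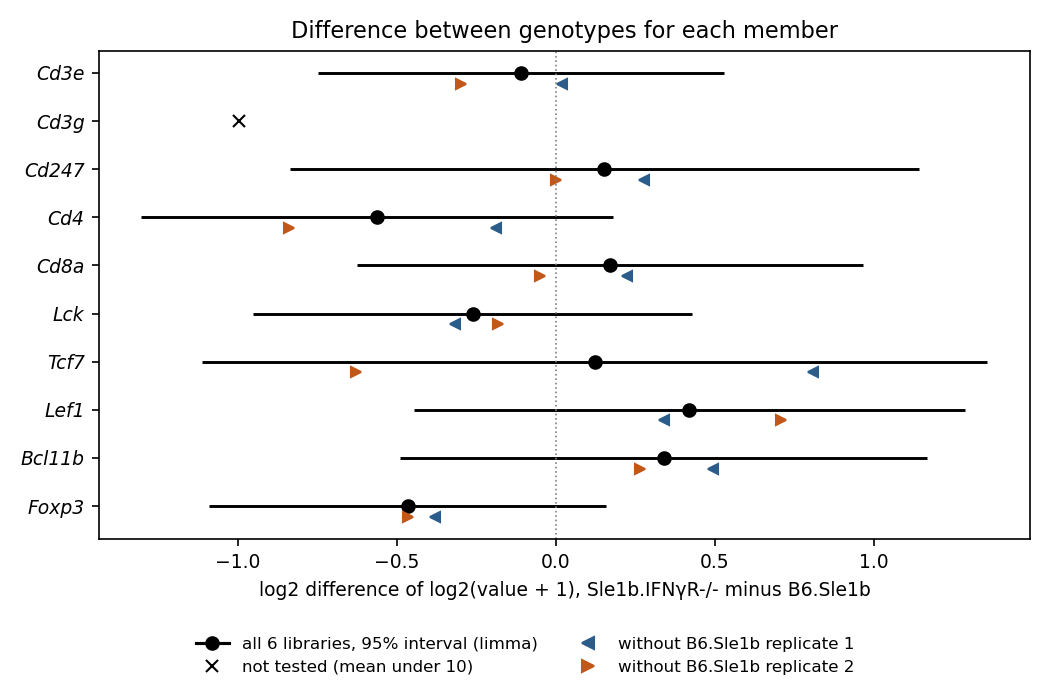
Difference in mean log2(value + 1), Sle1b.IFNγR-/- minus B6.Sle1b (horizontal axis), for the 10 genes; circles with 95% intervals are limma estimates from all 6 libraries, the cross is Cd3g, which was too low to test, and triangles leave out B6.Sle1b replicate 1 or replicate 2. All 9 intervals include 0, and the triangles lie on opposite sides of 0 for Cd3e, Cd8a and Tcf7.

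Levels of different genes were compared per kilobase of annotated exon. In Sle1b.IFNγR-/- they ran from Cd3e (21.1 ± 3.90 scaled counts per kb) through Cd4 (18.9 ± 1.78), Foxp3 (14.0 ± 2.62), Tcf7 (11.4 ± 0.963), Lck (11.3 ± 0.735) and Cd8a (11.2 ± 3.66) to Lef1 (3.62 ± 1.12), Bcl11b (3.57 ± 1.12), Cd247 (3.06 ± 0.566) and Cd3g (1.61 ± 1.00; SD, n = 3 for each gene). Neighbours in this order overlapped, except that Foxp3 lay just above Tcf7 and Cd8a lay above Lef1 in every library. In B6.Sle1b the order was Cd4 (30.2 ± 15.01), Cd3e (23.0 ± 5.02), Foxp3 (19.3 ± 2.30), Tcf7 (14.1 ± 12.3), Lck (13.6 ± 1.38), Cd8a (9.83 ± 2.60), Cd3g (3.49 ± 2.10), Bcl11b (2.75 ± 0.556), Cd247 (2.74 ± 0.549) and Lef1 (2.72 ± 1.06). There, Lck lay above Cd8a and Cd8a above Cd3g without overlap. The Lef1 level sets only the highest of its 4 loci against the exon length of the whole gene. It leaves out what the other loci hold, so its place in both orders, including the gap below Cd8a, is uncertain.

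The signalling chains in the set, which assemble in the same membrane complex, were thus at very unequal transcript levels. Cd3e was 13.1 times Cd3g per kilobase in Sle1b.IFNγR-/- and 6.57 times in B6.Sle1b. With so few Cd3g fragments the ratio ran from 9.13 to 20.5 in Sle1b.IFNγR-/- and from 5.41 to 9.20 in B6.Sle1b when single libraries were left out; the highest was without Sle1b.IFNγR-/- replicate 1. Cd3d, the remaining CD3 chain, was at 4.34 and 2.54 scaled counts per kilobase. Of the receptor's own chains, Trbc2 lay above Cd3e, at 80.7 in Sle1b.IFNγR-/- and 96.2 in B6.Sle1b, as did Trbc1 at 25.7 and 43.5. Trac lay below Cd3e, at 14.8 and 15.4. Lengths are the union of all GENCODE exons, whereas the loci also hold between 1 and 7 transcripts assembled from the reads, so a level per length is approximate.

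**Figure D3:**
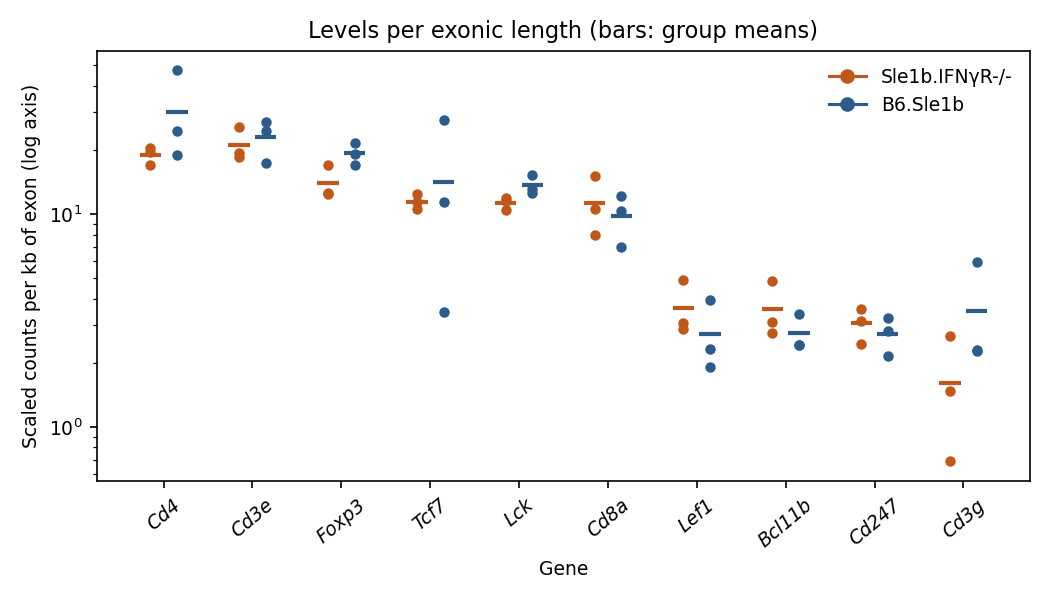
Scaled counts per kilobase of annotated exon (vertical log axis) of the 10 genes, ordered by their mean over all 6 libraries; points are libraries, bars group means, with Sle1b.IFNγR-/- left of B6.Sle1b at each gene. By their group means the genes fall into a higher set of 6, down to Cd8a, and a lower set of 4, from Lef1 to Cd3g, in both genotypes. Lef1 counts only its locus of highest mean over the exon length of the whole gene, so its place in the lower set is uncertain.

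In B6.Sle1b replicate 1, 9 of the 10 genes lay above their own mean. It was the highest library for 5 of them (Cd3e, Cd3g, Cd4, Tcf7 and Foxp3), while Lck and Cd8a were close to their mean there and Lef1 was below it. The median deviation of the 10 from their own means was -0.19, -0.040 and -0.019 on the log2 scale in Sle1b.IFNγR-/- replicates 1 to 3 and 0.24, -0.30 and 0.075 in B6.Sle1b replicates 1 to 3. The median over all tested loci in B6.Sle1b replicate 1 was 0.25, close to that of the 10 genes. As a share of the values at named loci, the 10 genes together held 0.0390%, 0.0402% and 0.0414% in Sle1b.IFNγR-/- and 0.0407%, 0.0423% and 0.0433% in B6.Sle1b. This share was nearly flat across libraries whose ribosomal level differed widely, and the groups overlapped. The part that library's RNA composition plays in the single genes was not tested.

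The tested loci with profiles most like the mean of Cd3e, Cd3g and Cd247 were found by the Euclidean distance between centred log2 values over the 6 libraries. In that mean Cd3g had the widest deviations, from -1.30 to 1.34. Those of Cd3e ran from -0.32 to 0.31 and those of Cd247 from -0.38 to 0.31. Cd3g was too low to test, at 2 to 19 fragments per library, so the order leans on a poorly measured gene. Nearest were Gm37904 at a distance of 0.0896, Arv1, a lipid transport gene, at 0.102, Itpr2, a calcium channel of the endoplasmic reticulum, at 0.113, Rps15a, a ribosomal protein gene, at 0.116 and Bbs2, a gene of cilium trafficking, at 0.134. The members themselves were much farther down the order of 19225 loci. Cd4 ranked 903, Foxp3 1951, Lck 3792, Bcl11b 5591, Cd8a 7984, Tcf7 14024 and Lef1 14263. Over 6 libraries, 1 of which stands apart, such a distance describes these libraries and says nothing of shared function.

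**Figure D4:**
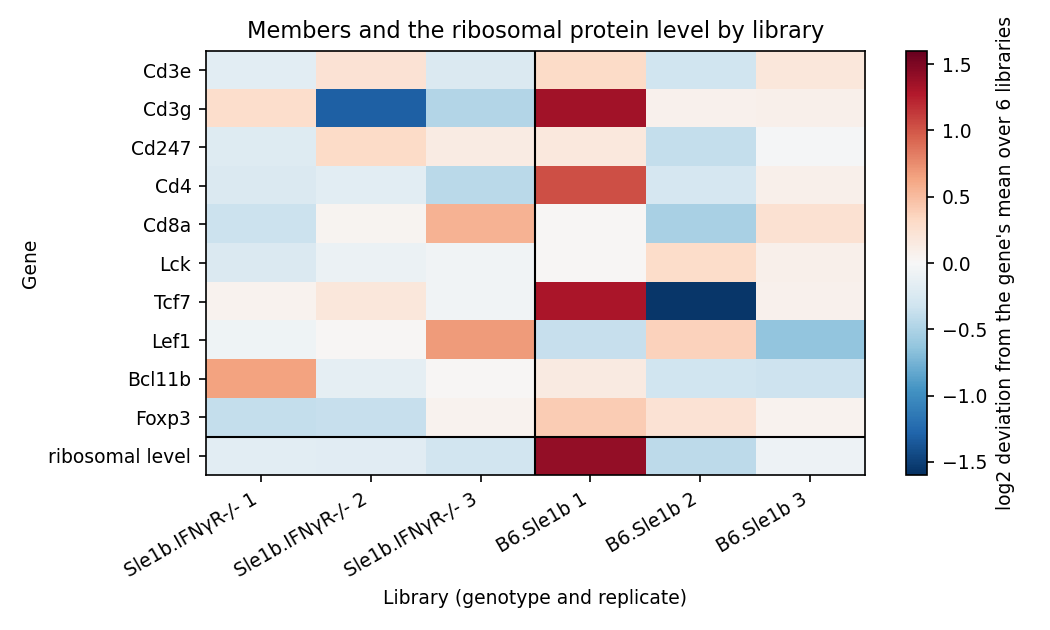
Deviation of each gene's log2(value + 1) from its mean over the 6 libraries (colour scale, log2 units) in the 3 Sle1b.IFNγR-/- and 3 B6.Sle1b libraries, with the median level of 30 ribosomal protein genes in the bottom row. B6.Sle1b replicate 1, where the ribosomal level is 1.41, is also high for Cd3g, Cd4 and Tcf7 and close to 0 for Cd8a and Lck.

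Among other genes of the T cell programme, in 5 lists, 52 of 63 could be tested, and 0 passed in limma, with 0 at an unadjusted p under 0.05 (3.1% of all tested loci). Of the 52, 13 had higher and 39 had lower mean log2 values in Sle1b.IFNγR-/-, with a median of -0.15, beside -0.083 for all tested loci. Without B6.Sle1b replicate 1 the same 52 genes had 30 higher and 22 lower (median 0.061), so the direction rests on that library. All 5 list medians were below 0 as deposited and turned positive, between 0.16 and 0.48, with values scaled to the ribosomal protein genes, which moved the median of all tested loci to 0.415. Values of the genes named below are means ± SD of scaled counts over 3 libraries each.

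Of the receptor chains and partners, 3 of 7 were tested (1 higher, 2 lower, median log2 difference -0.033, and 0.48 with ribosomal scaling). The constant regions of the receptor's own chains lay at 19.2 ± 11.8 in Sle1b.IFNγR-/- and 32.6 ± 36.3 in B6.Sle1b for Trbc1, at 13.9 ± 3.92 and 14.4 ± 12.5 for Trac, and at 55.9 ± 4.24 and 66.6 ± 47.5 for Trbc2. Each overlapped, and the spread was wider in B6.Sle1b in each. Trbc1 and Trbc2 are near-identical in sequence, so their separate values are uncertain. Without B6.Sle1b replicate 1 all 3 were higher in Sle1b.IFNγR-/- (median 0.54), and without B6.Sle1b replicate 2 the median was -0.37.

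The list of proximal T cell receptor signalling genes had 19 of 20 members tested, of which 6 were higher and 13 lower (median -0.17, and 0.35 with ribosomal scaling). Plcg1, the phospholipase that opens the calcium branch, lay at 42.7 ± 6.05 in Sle1b.IFNγR-/- and 29.4 ± 6.46 in B6.Sle1b; the groups did not overlap, as in 3.51% of all tested loci in that direction, and the log2 difference was 0.54 (limma adjusted p = 0.9998). Themis, a regulator of receptor signalling in thymocytes, lay at 43.4 ± 19.9 in Sle1b.IFNγR-/- and 29.1 ± 6.84 in B6.Sle1b. The kinase Zap70, which binds the phosphorylated chains, had a log2 difference of 0.077. Without B6.Sle1b replicate 1 the list's median was 0.067.

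T lineage transcription factors had 9 of 12 members tested, 1 higher and 8 lower (median -0.23, and 0.29 with ribosomal scaling). Those of smallest p were Runx1 at 104 ± 25.2 in Sle1b.IFNγR-/- and 147 ± 46.3 in B6.Sle1b, Bach2, which restrains effector differentiation, at 121 ± 18.9 in Sle1b.IFNγR-/- and 180 ± 88.5 in B6.Sle1b, and Ets1 at 83.7 ± 18.8 in Sle1b.IFNγR-/- and 136 ± 86.3 in B6.Sle1b, all with overlapping groups. The median was -0.044 without B6.Sle1b replicate 1 and -0.56 without B6.Sle1b replicate 2. Gata3, Klf2 and Zbtb7b, the factor of helper T cell fate, were too low to test.

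Surface and homing molecules had 11 of 12 members tested, 2 higher and 9 lower (median -0.33, and 0.16 with ribosomal scaling). The adhesion receptor gene Cd2 lay at 8.86 ± 2.76 in Sle1b.IFNγR-/- and 20.9 ± 13.9 in B6.Sle1b, the costimulatory receptor gene Cd28 at 46.7 ± 6.82 in Sle1b.IFNγR-/- and 73.7 ± 33.0 in B6.Sle1b and S1pr1, through which T cells leave lymphoid organs, at 32.2 ± 11.5 in Sle1b.IFNγR-/- and 24.5 ± 8.08 in B6.Sle1b. All 3 overlapped. Without B6.Sle1b replicate 1 the median was 0.080, with 7 higher and 4 lower, so the direction of this list rests on that library.

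Regulatory T cell genes had 10 of 12 members tested, 3 higher and 7 lower (median -0.084, and 0.43 with ribosomal scaling). The list turned without B6.Sle1b replicate 1, with 6 higher and 4 lower (median 0.051). Ctla4, the inhibitory receptor gene, lay at 37.8 ± 2.38 in Sle1b.IFNγR-/- and 51.8 ± 5.83 in B6.Sle1b, and its groups did not overlap, like those of Lck and of 5.19% of all tested loci in that direction. Its log2 difference was -0.44 (SE 0.31), with a limma adjusted p of 0.9998. Tnfrsf4, at a locus merged with Sdf4, lay at 63.7 ± 14.2 in Sle1b.IFNγR-/- and 87.7 ± 37.1 in B6.Sle1b, and Itgae, at a locus merged with 1200014J11Rik, at 167 ± 13.4 in Sle1b.IFNγR-/- and 183 ± 40.4 in B6.Sle1b. Il2ra, the interleukin-2 receptor chain of these cells, had a log2 difference of -0.059 and Ikzf2 of -0.050.

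Markers of other spleen cells were examined for the cells that share members of the set. Summed NK cell markers ran from 88.3 to 93.3 scaled counts in Sle1b.IFNγR-/- and from 63.3 to 154 in B6.Sle1b, with 4 of 10 tested (2 higher, 2 lower) and 6 at 0 in at least 1 library. Among them Klrb1c lay at 9.82 ± 7.17 in Sle1b.IFNγR-/- and 18.1 ± 6.39 in B6.Sle1b and Klrk1 at 18.8 ± 2.93 in Sle1b.IFNγR-/- and 11.1 ± 6.09 in B6.Sle1b, and the groups of Klrk1 did not overlap, on the side where 3.51% of all tested loci lie. Summed dendritic cell markers ran from 310 to 351 and from 280 to 475, with 3 of 8 tested higher and 5 lower, and with 6 higher and 2 lower without B6.Sle1b replicate 1 (median 0.037). Flt3, at 18.1 ± 4.05 in Sle1b.IFNγR-/- and 33.2 ± 5.96 in B6.Sle1b, and Itgax, at 50.9 ± 7.11 in Sle1b.IFNγR-/- and 78.5 ± 18.9 in B6.Sle1b, were lower without overlap, as were 5.19% of all tested loci, and neither passed. These cells can hold Cd4 and Cd8a, and their part in those values was not tested.

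Summed B cell markers ran from 1099 to 1184 scaled counts in Sle1b.IFNγR-/- and from 971 to 2043 in B6.Sle1b, with 3 of 10 higher and 7 lower, among them the complement receptor gene Cr2 at 99.3 ± 16.8 in Sle1b.IFNγR-/- and 57.2 ± 23.6 in B6.Sle1b (no overlap; 3.51% of all tested loci were higher in this way) and Cd79a at 17.5 ± 11.7 in Sle1b.IFNγR-/- and 41.4 ± 35.01 in B6.Sle1b. The B cell list had 8 higher and 2 lower without B6.Sle1b replicate 1 (median 0.18). Markers of macrophages and monocytes ran from 641 to 670 and from 392 to 2105, with 2 of 9 tested higher and 7 lower, among them Cd68 at 24.8 ± 3.21 in Sle1b.IFNγR-/- and 55.4 ± 37.0 in B6.Sle1b and Ly6c2 at 17.7 ± 3.59 in Sle1b.IFNγR-/- and 49.9 ± 44.8 in B6.Sle1b. That list had 6 higher and 3 lower without B6.Sle1b replicate 1 (median 0.24). Erythroid markers ran from 676 to 1020 and from 245 to 3496, with 8 of 10 higher and 2 lower, Epor at 16.8 ± 6.66 in Sle1b.IFNγR-/- and 12.3 ± 8.47 in B6.Sle1b and Car1 at 16.0 ± 6.24 in Sle1b.IFNγR-/- and 15.1 ± 17.0 in B6.Sle1b. Their median of 0.19 was 1.145 without B6.Sle1b replicate 1 and -0.55 without B6.Sle1b replicate 2. In each of these 3 lists the highest and the lowest library were both B6.Sle1b, and 0 genes passed.

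**Figure D5:**
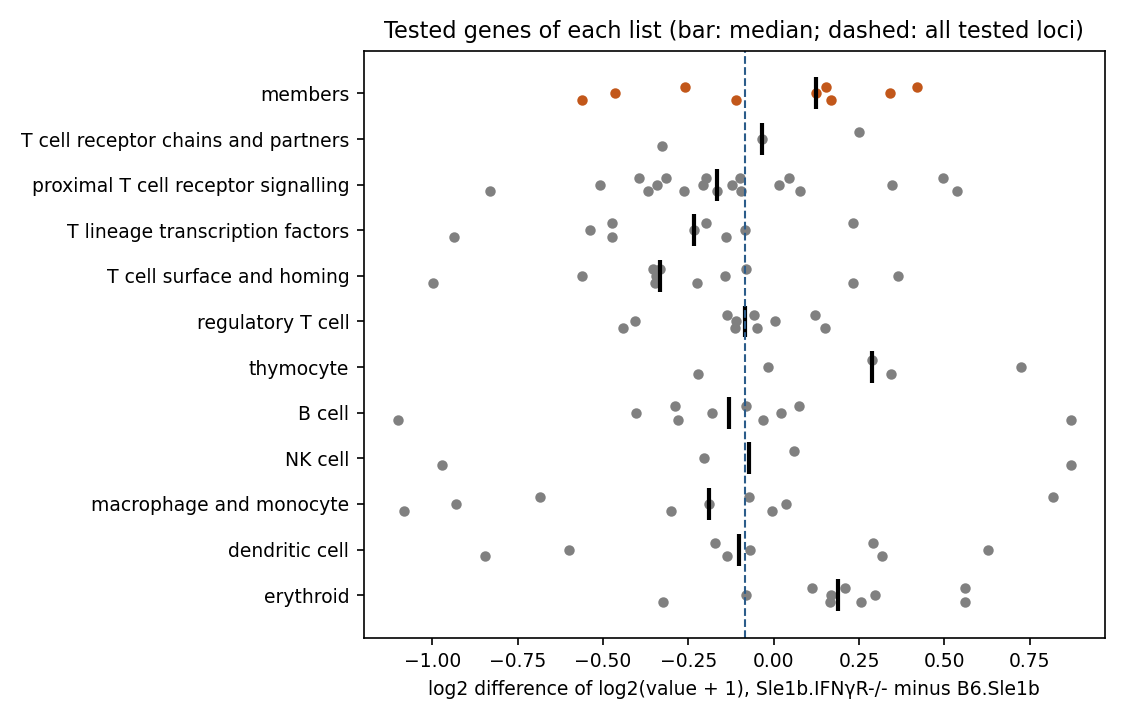
Log2 difference, Sle1b.IFNγR-/- minus B6.Sle1b (horizontal axis), of each tested gene in the set of 10 and in lists of other T cell genes and of other cell types; points are genes, bars list medians and the dashed line the median of all tested loci (-0.083). The 9 tested members lie between -0.56 and 0.42, and no gene shown passed the test.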

How the data were processed

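Total RNA of whole spleens was sequenced, and the 6 samples were grouped by their strain label. The labels do not say that each sample is another mouse, and p-values then describe only how far these samples vary, which may be technical. Cufflinks (2.2.1), TopHat2 (2.0.9) and CASAVA were used, with GRCm38 as the build, per the submitters' processing notes. The deposited values are a signal: fragments per assembled transcript locus, scaled between libraries by the authors. Each library has a step worth 1 fragment, from 0.822 to 1.198, and dividing by it gave whole numbers (within 0.01) for 99.8% of positive values, hence the fragment totals. Because not all were whole, no count test was run. The table's 1530481 rows collapse to 426574 loci, of which 381780 have no gene name and were left out. A further 24 columns of the same 6 libraries, holding variances and a status per locus, were not used.

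The test was limma 3.58.1 (R 4.3.3) on log2(value + 1) over the 19227 named loci whose mean reached 10, two-sided, with trended variance and Benjamini-Hochberg adjustment over all of them. Genes named from each list were those of smallest p, 3 per T cell list and 2 per other list (1 of them is not reported here), and a few others, such as Zap70, Il2ra and Ikzf2, were named for their role after their values were seen. Ratios used exact permutation tests (scipy 1.17.1). Exon lengths came from GENCODE mouse release 21. Samples of the same replicate number did not deviate together (correlations 0.012, -0.027 and -0.011). Alternatives covered scaling, filter, pseudocount, robust fitting, the replicate block, a ribosomal covariate and leaving out each library; doing so for the Cd3e over Cd3g level and for the T cell lists together was added after seeing the data. The 10 genes and the lists were chosen with earlier results of these data known.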

Additional observations from a re-analysis of the deposited data

How the results depend on the processing

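No member passed the threshold under any alternative that gave it a value (148 values, smallest limma adjusted p 0.464). Among the 9 tested genes Cd4, Lef1, Bcl11b and Cd247 kept their direction in all of theirs, while Cd3g had a value only without the filter. For Lef1 this direction is that of its locus of highest mean only, since no alternative changed the locus. The number of all loci past the threshold was 0, and 1 with scaling to the library total, 1 with scaling to ribosomal protein genes, 7 with the ribosomal level as a covariate (3 higher, 4 lower) and between 0 and 5 when single libraries were left out; 5 passed without B6.Sle1b replicate 1 and 5 without B6.Sle1b replicate 2. With the replicate number as a block it was 0 (567 at an unadjusted p under 0.05), and the block changed no other call.

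Scaling moved the median of all tested loci, which was -0.083 as deposited, 0.057 with total scaling, 0.415 with ribosomal scaling and -0.0069 with median-ratio scaling. Of the loci at an unadjusted p under 0.05, 33.1% were higher as deposited and 94.97% with ribosomal scaling. The direction of Cd3e turned with total scaling (0.036), ribosomal scaling (0.41) and the ribosomal covariate (0.036), that of Foxp3 (0.049) and Lck (0.24) with ribosomal scaling. Leave-one-out values ran from -0.30 to 0.018 for Cd3e, from -0.63 to 0.81 for Tcf7 and from -0.069 to 0.39 for Cd8a, all of which change sign. They ran from -0.84 to -0.19 for Cd4, from -0.61 to -0.38 for Foxp3, from -0.32 to -0.18 for Lck, from 0.19 to 0.71 for Lef1, from 0.11 to 0.50 for Bcl11b and from 0.0023 to 0.29 for Cd247. The ratio differences ran from -0.99 to -0.41 for Cd4 over Cd8a, from -0.19 to 0.38 for Foxp3 over Cd4 and from -1.33 to -0.34 for Cd3g over Cd3e. The cause of these changes was not tested. The edgeR and DESeq2 alternatives were not run, since the values are not counts, and a minimum mean of 50 left only Cd3e, Cd4 and Foxp3 to test. Depth limits Cd3g (2 to 19 fragments per library) and Cd247 (14 to 17).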

Other observations

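Of 2 further T cell genes too low to test, Cd3d, the delta chain of CD3, had scaled counts of 6.12, 6.74 and 10.8 in Sle1b.IFNγR-/- and 4.08, 4.11 and 5.62 in B6.Sle1b. Every Sle1b.IFNγR-/- library lay above every B6.Sle1b library, as in 3.51% of tested loci. Cd3g, its neighbour on chromosome 9, had a lower mean in Sle1b.IFNγR-/-, with groups that overlapped. Cd6, a coreceptor that tunes T cell activation, had 1.75, 3.37 and 2.40 in Sle1b.IFNγR-/- and 15.3, 4.11 and 5.62 in B6.Sle1b. It was lower without overlap, as were 5.19% of tested loci. Cd3d and Cd6 are themselves not among the tested loci that these shares describe. Values this low stand for a few fragments per library, and both genes were chosen after their values were seen.

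The thymocyte list had 5 of 8 members tested, 3 higher and 2 lower in Sle1b.IFNγR-/- (median log2 difference 0.29), and 0 passed. Which spleen cells held these transcripts was not tested. Cd1d1 lay at 15.8 ± 6.58 in Sle1b.IFNγR-/- and 8.83 ± 2.79 in B6.Sle1b, and Arpp21 at 103 ± 20.9 in Sle1b.IFNγR-/- and 83.0 ± 1.25 in B6.Sle1b. Ribosomal protein genes had 29 of 30 members tested, 4 higher and 25 lower (median -0.47), with 0 passed, and the median was 0.092 without B6.Sle1b replicate 1.

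The 3 further loci that carry the name Lef1 did not follow the locus of highest mean. The first had 11.4, 26.97 and 7.19 scaled counts in Sle1b.IFNγR-/- and 29.6, 9.87 and 25.3 in B6.Sle1b. The next had 20.99, 8.99 and 10.8 in Sle1b.IFNγR-/- and 9.17, 31.2 and 15.9 in B6.Sle1b, and the last had 2.62, 8.99 and 9.58 in Sle1b.IFNγR-/- and 3.06, 3.29 and 6.56 in B6.Sle1b. The groups overlapped at each.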
